A study of Mus musculus with 16 samples.

Results

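The transcripts described here are those of the hair keratins and of the keratin-associated proteins (KAPs), the structural proteins of the hair follicle. The set was defined by name: every probe set whose single gene symbol in the platform annotation starts with Krtap, or is one of 24 listed keratins of the hair shaft, the inner root sheath and the companion layer. It held 63 of the 34945 probe sets with a single symbol, or 58 of 18193 genes, of which 20 were keratins and 38 were KAP genes. The keratins Krt39, Krt40, Krt74 and Krt85 belong to the named list and are not analysed here. The 16 Affymetrix arrays measured RNA of incisional wounds on the backs of wild-type C57BL/6 mice, all labelled female. There were 4 groups of 4 arrays: unstressed wounds and mechanically loaded (stressed) wounds at day 6, after 48 hours of loading, and the same pair of conditions at day 14, after 10 days of loading. Each group comes from 4 mice per the design text, so the 2 days are different wounds. The loading follows a mouse model of hypertrophic scarring, the tissue was taken whole from the wound site, and neither the age of the mice nor the state of their hair cycle is given in the labels.

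A hair follicle in its growth phase builds the hair from a matrix of dividing cells at its base, and each concentric layer makes its own keratins. The inner root sheath, which moulds the growing hair, differentiates early and low in the follicle and uses Krt25 to Krt28 and Krt71 to Krt73. The matrix and precortex switch on Krt35, the cuticle of the hair makes Krt32 and Krt82, and the cortex above them makes Krt31, Krt33a, Krt33b, Krt34, Krt81, Krt83 and Krt86. KAPs are small proteins of the cuticle and cortex that crosslink the keratin filaments, and they fall into high sulfur, ultrahigh sulfur and high glycine-tyrosine classes. In the resting phase of the hair cycle the follicle makes little of either.

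The promoters of 4 of these genes are shown because they represent the layers compared below: Krt71 and Krt25 of the inner root sheath, Krt31 of the cortex, and Krtap8-1, a high glycine-tyrosine KAP. Each window runs 5′ to 3′ on the gene's strand from 250 bases before to 50 bases after the RefSeq start (build GRCm38.p6), at chr15:101743048-101743347, chr11:99322902-99323201, chr11:100050502-100050801 and chr16:89487903-89488202, all on the minus strand. Capitals mark the letters TATAAA, the core of a TATA box, and CTTTGA, the core recognised by LEF1 and TCF factors.
Krt71: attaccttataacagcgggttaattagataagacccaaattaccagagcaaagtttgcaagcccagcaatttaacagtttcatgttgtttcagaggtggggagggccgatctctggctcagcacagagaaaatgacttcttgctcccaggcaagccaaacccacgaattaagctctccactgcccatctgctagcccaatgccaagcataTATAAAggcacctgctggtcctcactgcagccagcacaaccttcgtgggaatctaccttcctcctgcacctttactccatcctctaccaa
Krt25: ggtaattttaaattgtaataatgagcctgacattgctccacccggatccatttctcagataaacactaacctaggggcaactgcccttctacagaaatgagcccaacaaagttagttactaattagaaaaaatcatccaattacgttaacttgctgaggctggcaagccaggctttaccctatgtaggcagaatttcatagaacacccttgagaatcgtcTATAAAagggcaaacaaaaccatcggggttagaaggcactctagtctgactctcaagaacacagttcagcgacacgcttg
Krt31: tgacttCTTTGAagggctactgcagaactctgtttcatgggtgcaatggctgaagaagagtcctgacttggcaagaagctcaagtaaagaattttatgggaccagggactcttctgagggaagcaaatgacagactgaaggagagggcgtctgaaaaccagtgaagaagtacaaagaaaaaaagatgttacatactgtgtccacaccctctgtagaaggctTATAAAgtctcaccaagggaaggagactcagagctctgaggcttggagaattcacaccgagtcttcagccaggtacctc
Krtap8-1: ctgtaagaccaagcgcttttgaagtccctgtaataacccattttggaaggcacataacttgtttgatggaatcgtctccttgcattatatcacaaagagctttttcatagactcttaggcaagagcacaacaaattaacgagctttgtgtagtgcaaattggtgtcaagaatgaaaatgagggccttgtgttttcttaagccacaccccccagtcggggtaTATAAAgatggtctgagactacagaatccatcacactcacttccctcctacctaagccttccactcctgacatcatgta
The run TATAAA begins 40 bases before the start in Krt71, 30 in Krt25, and 29 in both Krt31 and Krtap8-1. RefSeq windows were matched for 51 of the 58 genes. TATAAA occurred on either strand in 41 of the 51 (80.4%), against 3827 of all 27025 windows (14.2%). On the gene's own strand within the 50 bases before the start it occurred in 33 of 51 (64.7%), against 779 of 27025 (2.88%). All 7 inner root sheath genes held it within the window. CTTTGA was found on either strand in 15 of 51 (29.4%), against 16.2% of all windows. In Krt31 it lies 244 bases before the start. These matches describe letters in the windows and do not show that a factor binds there. The matched genes lie mainly in clusters, with 19 on chromosome 11, 19 on chromosome 16, 6 on chromosome 15 and 5 on chromosome 7, so neighbouring genes share sequence history and are not independent examples.

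Signals are log2 values that the authors centred per probe set, so 0 marks no absolute level, a value is meaningful only against the same probe set on other arrays, and detection above background could not be judged. The log base is not stated. It was read as 2, and if the values were natural logs every difference would be larger on the log2 scale than printed. Several KAP families consist of near-identical genes, and 4 of the 63 probe sets carry the suffix _s_at and 1 the suffix _x_at, which mark probes shared between transcripts, so signals within a KAP family may not be separate. The labels also disagree with the data in a way that touches these genes. The mean of the 3 Xist probe sets lay between 4.38 and 5.39 on arrays 3 and 4 of both day 14 groups and between -0.38 and 0.52 on the other 12 arrays, although Xist is transcribed in females and all mice are labelled female. The day 14 arrays were therefore also described within the low Xist class (arrays 1 and 2 of each group) and the high Xist class (arrays 3 and 4 of each group). In whole tissue, fewer cells of a type and less RNA per cell cannot be told apart.

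**Figure D1:**
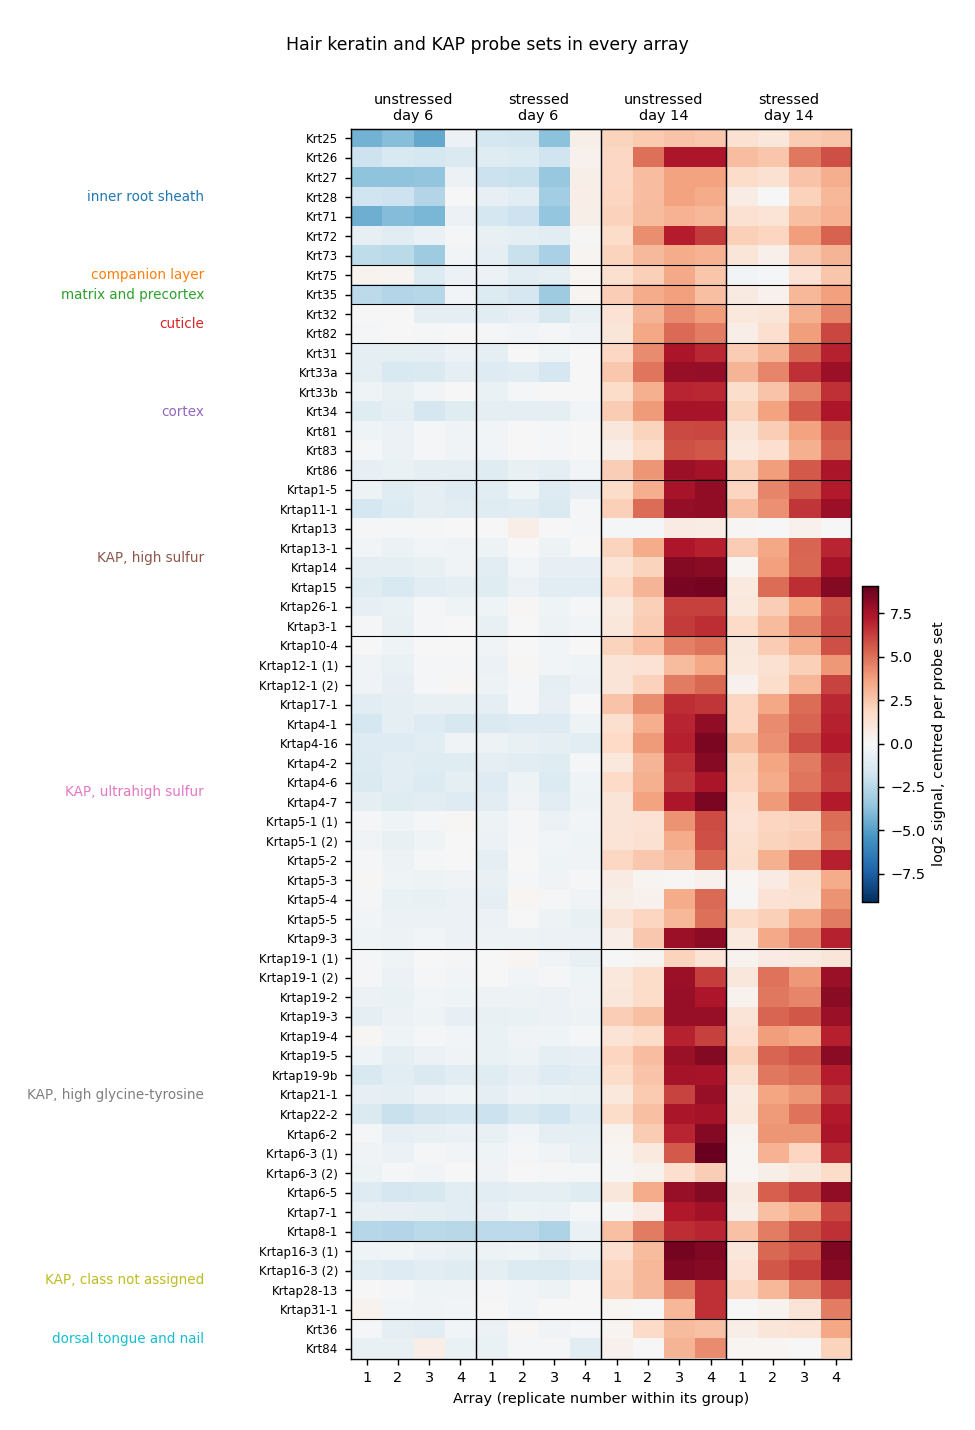
Centred log2 signal of each of the 63 probe sets (rows, grouped by follicle layer or KAP class) on each of the 16 arrays (columns, by group and replicate number). Day 14 columns are red almost throughout, darkest in arrays 3 and 4, while the lowest day 6 values are those of inner root sheath keratins such as Krt25 (down to -4.68).

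Nearly all hair keratins and KAPs were higher at day 14 than at day 6, with and without load. In unstressed wounds 60 of the 63 probe sets rose and 0 fell (limma, adjusted p under 0.05), where 16.8% of all 34945 probe sets rose and 23.4% fell. The median difference over the 63 was 5.0 on the log2 scale, against -0.05 over all probe sets. In stressed wounds 56 of 63 rose and 0 fell, where 18.7% of all probe sets rose and 26.6% fell, with a median of 4.11 against -0.07. All 4 day 14 arrays exceeded all 4 day 6 arrays for 60 probe sets in unstressed and 58 in stressed wounds, against 16.5% of all probe sets in either. Of the 50 probe sets with the widest range over the 16 arrays, of all 34945, 33 were hair keratins or KAPs, and of the widest 100, 50 were.

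The rise differed in size between individual arrays. The median over the 63 probe sets was -0.55, -0.71, -0.65 and -0.38 on the unstressed day 6 arrays and -0.70, -0.37, -0.68 and -0.28 on the stressed ones. At day 14 it was 1.43, 2.75, 6.45 and 6.65 in unstressed and 1.16, 3.01, 4.03 and 6.22 in stressed wounds. Every day 14 array thus lay above every day 6 array, and the day 14 arrays ran from slightly raised to far above. The within-group SD of these probe sets had a median of 0.22 and 0.29 at day 6 (unstressed and stressed), near the 0.19 and 0.18 over all probe sets. At day 14 it was 2.63 and 2.09, against 0.23 and 0.25 over all. For 45 of the 63, all 4 high Xist arrays exceeded all 4 low Xist arrays at day 14, as did 4.45% of all probe sets.

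**Figure D2:**
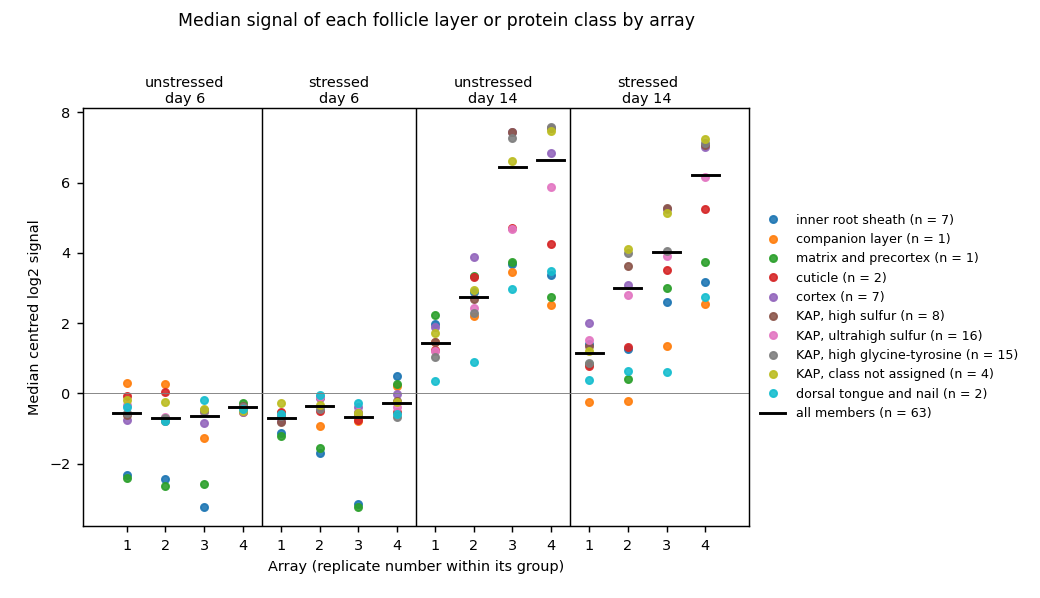
Median centred log2 signal of each follicle layer or KAP class (coloured points, n probe sets in the legend) and of all 63 probe sets (black bars) on each array. The bars lie between -0.71 and -0.28 at day 6 and between 1.16 and 6.65 at day 14. Because of the centring a point can be read against the same layer on other arrays only.

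Within the low Xist class alone, 55 of 63 probe sets still rose in unstressed wounds and 56 of 63 in stressed wounds, where 14.7% and 19.4% of all probe sets rose, with median differences of 2.65 and 2.81. With only the high Xist arrays kept at day 14, 62 of 63 were higher than at day 6 in each condition (15.7% and 13% of all probe sets). The medians were 7.32 and 5.67. No day 6 array was of high Xist, so this difference joins time and class and is no rise within the class. The direction was the same with either class at day 14, with larger medians for the high Xist class. The part of whatever separates the classes in the size of the rise was not tested.

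All 7 inner root sheath keratins rose in both conditions, by a median of 5.72 in unstressed and 3.75 in stressed wounds. Krt71, a type II keratin of all inner root sheath layers, read -4.47, -3.91, -4.16 and -0.51 on the unstressed day 6 arrays and -1.58, -1.88, -3.48 and 0.51 on the stressed ones. The day 14 values were 2.07, 2.88, 3.19 and 3.06 in unstressed and 1.42, 1.26, 2.72 and 3.16 in stressed wounds. The days did not overlap, and array 4 of each day 6 group stood above its other arrays. Krt71 rose by 6.06 (SE 0.84, limma adjusted p = 8.85e-05) in unstressed and by 3.75 (SE 0.84, limma adjusted p = 0.00244) in stressed wounds. Its type I counterpart Krt25 rose by 5.72 (SE 0.84, limma adjusted p = 0.000133) and by 3.43 (SE 0.84, limma adjusted p = 0.00426). Krt27 rose by 5.87 and 3.96, Krt73 by 4.93 and 3.17, and Krt28 by 4.53 and 2.52. The stressed rise of Krt28 did not pass with the Xist class as a term (1.68, limma adjusted p = 0.0752) or without stressed day 6 array 3 (limma adjusted p = 0.057).

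Krt26 and Krt72, known like Krt73 from the cuticle of the inner root sheath, followed a different course among the arrays. Krt26 read 1.85, 5.03, 7.36 and 7.34 on the unstressed day 14 arrays and 2.83, 2.54, 4.77 and 5.87 on the stressed ones, from -1.90 to 0.39 at day 6. Krt72 read 1.66, 4.22, 7.13 and 6.37 in unstressed and 2.16, 1.98, 3.82 and 5.36 in stressed wounds at day 14, from -1.06 to 0.09 at day 6. The day 14 arrays of each of these 2 keratins spanned more than 4 log2 units, while those of Krt25 stayed between 1.04 and 2.57 and those of Krt73 between 0.46 and 3.39. Krt26 rose by 6.94 (SE 1.0, limma adjusted p = 0.000116) in unstressed and by 4.95 in stressed wounds, and Krt72 by 5.46 and 3.95. Whether Krt25 or Krt71 neared the top of the scanner's range on some arrays cannot be judged from centred values.

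The companion layer keratin Krt75, made by the cells between the inner and the outer root sheath, had a smaller range. It read 0.30, 0.28, -1.26 and -0.53 on the unstressed and -0.57, -0.93, -0.80 and 0.21 on the stressed day 6 arrays. At day 14 it read 1.45, 2.19, 3.45 and 2.51 in unstressed but -0.24, -0.21, 1.34 and 2.55 in stressed wounds. The days were separate in unstressed wounds and overlapped in stressed ones. It rose by 2.71 in unstressed wounds (SE 0.57, limma adjusted p = 0.00186), and in stressed wounds the difference of 1.38 did not pass (SE 0.57, limma adjusted p = 0.0604). The latter depended on the setting, since it passed after quantile normalization (1.62, limma adjusted p = 0.0287), with the filter on variability (limma adjusted p = 0.0419), without the low Xist arrays (2.46, limma adjusted p = 0.00289) and without stressed day 6 array 4 or stressed day 14 array 1 or 2 (limma adjusted p = 0.0497, 0.0288 and 0.0291). No test of the difference between these time effects passed for any of the 63 probe sets.

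Krt35, the first hair keratin of the matrix and precortex, followed the inner root sheath. It read -2.41, -2.64, -2.59 and -0.27 on the unstressed and -1.22, -1.54, -3.24 and 0.27 on the stressed day 6 arrays. It then read 2.23, 3.35, 3.74 and 2.75 in unstressed and 0.83, 0.42, 3.0 and 3.75 in stressed wounds. The increase was 5.0 (SE 0.79, limma adjusted p = 0.00024) and 3.43 (SE 0.79, limma adjusted p = 0.00297). In stressed wounds without the high Xist arrays it no longer passed (adjusted p = 0.060), nor did Krt25 (adjusted p = 0.057) or Krt28 (1.40, adjusted p = 0.199).

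The cuticle keratins Krt32 and Krt82 both rose. Krt82 stayed between -0.34 and 0.01 on all day 6 arrays, then read 1.12, 3.52, 5.13 and 4.67 in unstressed and 0.59, 1.56, 3.78 and 6.06 in stressed wounds at day 14. Krt82 gained 3.69 in unstressed and 3.19 in stressed wounds, and Krt32 gained 3.55 and 3.41.

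All 7 cortex keratins rose in both conditions, by a median of 5.90 in unstressed and 4.72 in stressed wounds. Krt31, a type I cortex keratin, stayed between -0.92 and 0.01 on the 8 day 6 arrays. Day 14 values were 1.90, 4.30, 7.44 and 6.86 in unstressed and 2.29, 3.10, 5.27 and 7.01 in stressed wounds. Both groups thus held arrays near 2 and arrays near 7, and neither overlapped with day 6. Krt31 gained 5.90 (SE 1.05, limma adjusted p = 0.000536) and 4.72 (SE 1.05, limma adjusted p = 0.00224). Krt33a showed the largest unstressed change of the cortex keratins, 6.91 (SE 1.09), and 6.42 in stressed wounds. The type II keratin Krt86 gained 6.16 and 5.48.

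KAPs of every class rose, 40 of 43 probe sets in unstressed and 38 of 43 in stressed wounds. Of the 15 high glycine-tyrosine probe sets, 15 and 13 rose. Krtap8-1 of this class had the largest change of all 63 probe sets in either condition. It lay between -2.84 and -2.35 on 7 of the 8 day 6 arrays and at -0.63 on stressed array 4. At day 14 it read 2.70, 4.70, 6.75 and 6.92 in unstressed and 2.66, 4.67, 5.80 and 6.68 in stressed wounds. The difference was 7.84 (SE 0.88, limma adjusted p = 1.83e-05) in unstressed and 6.99 (SE 0.88, limma adjusted p = 4.5e-05) in stressed wounds. Krtap22-2 gained 6.52 and 5.82. The probe sets of Krtap6-3 and Krtap19-1 differed widely in range. One Krtap6-3 probe set read 0.18, 0.89, 5.61 and 9.02 on the unstressed day 14 arrays, and the other 0.09, 0.35, 1.5 and 2.27. The unstressed call of the former was lost in a fit of only the arrays compared, with array weights and with the Xist class as a term (limma adjusted p = 0.0778, 0.129 and 0.212). Many omissions of a single array removed it too.

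Of the 8 high sulfur KAP probe sets, 7 rose in both conditions. Krtap11-1 lay between -1.58 and -0.18 at day 6, and read 2.15, 5.08, 7.98 and 8.06 in unstressed and 2.80, 4.19, 6.51 and 7.76 in stressed wounds at day 14. It gained 7.01 (SE 1.14, limma adjusted p = 0.000275) and 6.19 (SE 1.14, limma adjusted p = 0.000613). The exception was Krtap13, whose differences were 0.37 (adjusted p = 0.16) and -0.00, and whose 16 values stayed between -0.16 and 0.76. Of the 16 probe sets counted as ultrahigh sulfur, 15 rose in each condition, Krtap17-1 by 5.81 and 4.80. Krtap10-4 and Krtap12-1 were counted in this class, an assignment not checked against protein composition. Krtap5-3 did not pass in unstressed wounds (0.66, adjusted p = 0.27) and Krtap5-4 did not in stressed ones (2.0, adjusted p = 0.084). Both depended on the setting. Krtap5-4 passed with the day 14 arrays of either Xist class alone (0.98 for low, limma adjusted p = 0.0232, and 3.03 for high, limma adjusted p = 0.00352), after quantile normalization (limma adjusted p = 0.0153) and in a fit of only the arrays compared (limma adjusted p = 0.0432). Its call in unstressed wounds was lost with array weights and with the Xist class as a term (limma adjusted p = 0.0600 and 0.0811). Krtap5-3 passed without the high Xist arrays (0.79, limma adjusted p = 0.0195) and in a fit of only the arrays compared (limma adjusted p = 0.0175).

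Krt36 and Krt84 are hair-type keratins known mainly from the dorsal tongue and the nail. Krt36 gained 2.45 in unstressed and 1.86 in stressed wounds. Krt84 read 0.41, 0.01, 3.07 and 4.30 in unstressed and 0.20, 0.18, -0.01 and 2.01 in stressed wounds at day 14, from -0.95 to 0.61 at day 6. It gained 2.29 in unstressed wounds (limma adjusted p = 0.0239), while the difference of 1.08 in stressed wounds did not pass (limma adjusted p = 0.253). Without the high Xist arrays the unstressed difference was 0.56 and did not pass either (limma adjusted p = 0.227). The unstressed call was also lost in a fit of only the arrays compared, with array weights and with the Xist class as a term (limma adjusted p = 0.0698, 0.0905 and 0.116). Several omissions of a single array removed it too.

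The layers divided the day 14 difference unequally between the Xist classes. For the inner root sheath, the low Xist arrays lay a median of 4.20 above the mean of the 8 day 6 arrays, and the high Xist arrays a further 1.38 above the low ones. For Krt35 these differences were 3.41 and 1.6. For the cortex they were 3.44 and 3.88, for the high sulfur KAPs 2.78 and 3.97, and for the high glycine-tyrosine KAPs 2.41 and 4.49. Expressed as a share of the whole difference between day 6 and the high Xist arrays, the low Xist arrays held 71.0% for the inner root sheath, 47.8% for the cortex and 37.7% for the high glycine-tyrosine KAPs. The companion layer keratin stood at 42.1%, the cuticle at 43.2% and the ultrahigh sulfur KAPs at 45.1%. Single genes departed from their layer. Krt26 and Krt72 of the inner root sheath stood at 56.8% and 49.6%, close to the cortex, and Krtap8-1 at 67.7%, above the other high glycine-tyrosine KAPs. The probe sets also differed in their day 6 mean. Krt25, Krt71 and Krtap8-1, with means of -2.48, -2.44 and -2.31, held 84.9%, 79.5% and 67.7%. Krtap22-2, with a mean of -1.61, held 46.7%, and Krt72, with -0.62, held 49.6%. The part of a signal floor at day 6 or a ceiling at day 14 in these shares was not tested, and centred values show neither. The shares were computed after the values had been seen and carry no test.

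**Figure D3:**
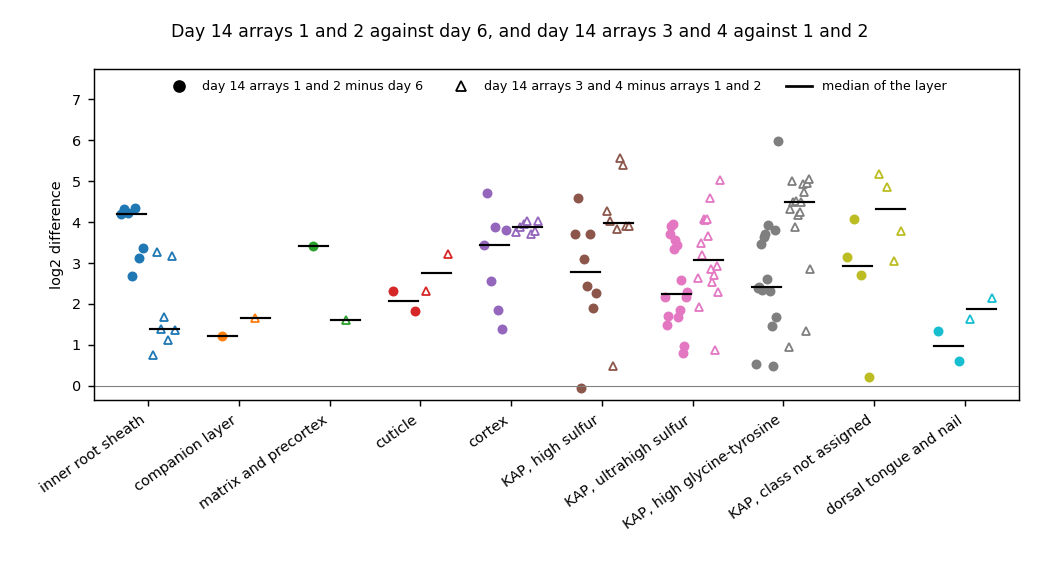
Log2 difference of the low Xist day 14 arrays (arrays 1 and 2 of both groups) from the mean of the 8 day 6 arrays (filled circles), and of the high Xist arrays (arrays 3 and 4) from the low ones (open triangles), 1 symbol per probe set, by layer or KAP class. Bars are medians: 4.20 and 1.38 for the inner root sheath, 2.41 and 4.49 for the high glycine-tyrosine KAPs.

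At day 6, the inner root sheath keratins and Krt35 differed between the arrays of each group. The median of the 7 inner root sheath keratins was -2.31, -2.43, -3.24 and -0.51 on the unstressed arrays and -1.13, -1.69, -3.15 and 0.51 on the stressed ones. Array 4 was the highest of its group for all 7 and for Krt35 in both groups. Its lead was small for Krt26 in the unstressed group, with -1.30 on array 4 and -1.39 on array 2. In the stressed group array 3 also lay apart, below the other arrays with its median of -3.15. The cortex medians were -0.75, -0.69, -0.84 and -0.52 in unstressed and -0.79, -0.14, -0.40 and -0.00 in stressed wounds, a far narrower span. The median of the high glycine-tyrosine KAPs stayed between -0.71 and -0.38, although Krtap8-1 of that class was highest on stressed array 4. Tchh, which encodes the inner root sheath protein trichohyalin and is no keratin, read -3.59, -3.35, -2.68 and -0.76 in unstressed and -2.23, -2.13, -3.07 and 0.57 in stressed wounds, and was likewise highest on array 4. Without array 4 of both day 6 groups, 57 of 63 probe sets rose in unstressed and 50 in stressed wounds, where 13.5% and 14.8% of all probe sets did.

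**Figure D4:**
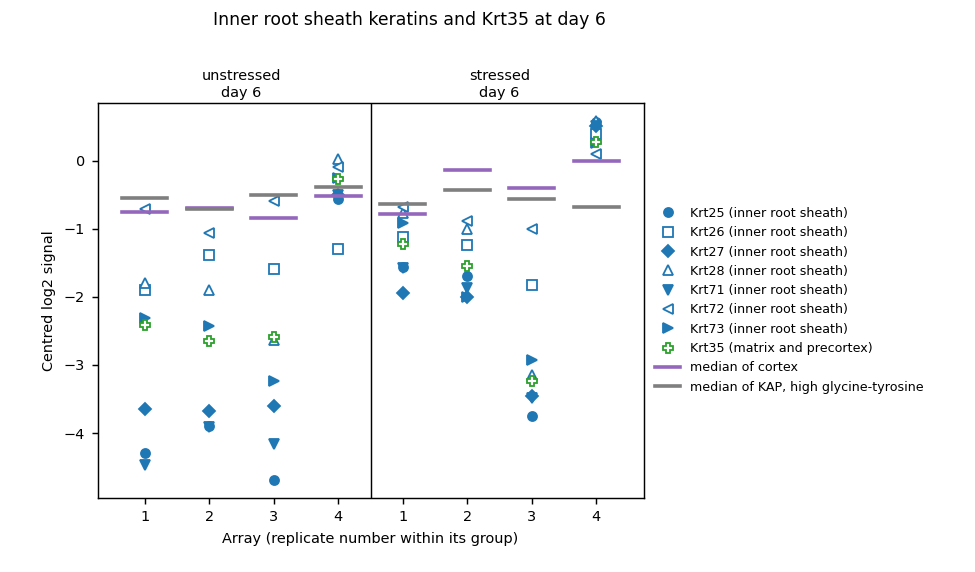
Centred log2 signal of the 7 inner root sheath keratins and Krt35 on the 8 day 6 arrays, with the medians of the cortex keratins and the high glycine-tyrosine KAPs as bars. All 8 keratins are highest on array 4 of each group, where the inner root sheath median is -0.51 and 0.51, while the bars stay between -0.84 and 0.

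Loading changed none of these transcripts detectably at day 6, in a test with little power for small differences. In stressed against unstressed wounds 0 of 63 probe sets passed limma's test in either direction (0 at an unadjusted p under 0.05), where 0.0258% of all probe sets did. The fit pooled its variance over both days, so the SE of these probe sets carried their wider day 14 spread. Their median within-group SD was 0.22 and 0.29 at day 6 (unstressed and stressed), against 2.63 and 2.09 at day 14. In a fit of the day 6 arrays alone 0 of 63 passed as well. There 4 were at an unadjusted limma p under 0.05, as were 3487 of all 34945. The median difference was 0.09, with 43 of 63 positive. It was 0.011 after quantile normalization (33 positive) and -0.0065 with array weights (30 positive), and ran from 0.053 to 0.138 with single arrays left out. The largest differences were those of Krt25 (1.75, SE 0.84, limma adjusted p = 0.889) and Krt71 (1.65, SE 0.84, limma adjusted p = 0.905), whose groups overlapped. Krt34 was the only probe set whose groups did not overlap, with stressed arrays higher. Its difference was 0.45 with an SE of 1.10, although its day 6 SDs were 0.26 and 0.28. Of all probe sets, 3.11% separated with stressed arrays higher and 3.05% with stressed arrays lower.

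Loading at day 14 left 0 of 63 probe sets past the threshold (2 at an unadjusted p under 0.05, Krt75 and Krtap5-3), where 7.35% of all probe sets passed. The median difference was -0.53, with 5 of 63 positive. No probe set had groups that did not overlap, against 5.55% of all probe sets with stressed higher and 4.52% with stressed lower. This direction was not settled: the median was 0.02 after quantile normalization and 0.19 with array weights, and leaving out single arrays moved it between -1.44 and 0.30. Quantile normalization acted on values already centred and gives every array the same distribution. That can by itself shrink differences between arrays in probe sets of the widest range, as these are. The test of whether the loading difference itself changed between days passed for 0 of 63 probe sets (0.00858% of all).

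Krt75 had the largest negative difference of loading at day 14, -1.54 (SE 0.57, limma adjusted p = 0.113), and its groups overlapped through stressed array 4. Its stressed arrays were lower in pairs 1 to 3 of the replicate numbers and near equal in the fourth. With the Xist class as a term in the fit its difference of -1.54 passed (limma adjusted p = 0.020), without the high Xist arrays it was -2.05 (limma adjusted p = 0.013), and without stressed array 4 it was -2.11 (limma adjusted p = 0.014). In each of these settings Krt75 was the 1 probe set of the 63 that passed. With the replicate number as a block, which assumes that same-numbered arrays are pairs, Krt28 passed instead, with -1.52 (limma adjusted p = 0.036). Over all probe sets, 6.62%, 11%, 8.38% and 3.49% were lower in these 4 settings. Without the low Xist arrays 4 of the 63 passed, Krtap5-3 higher (1.38% of all probe sets) and Krt72, Krt84 and Krtap7-1 lower (0.91%).

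The loading differences at day 14 were also read within the Xist classes. On arrays 1 and 2, the stressed minus unstressed difference had a median of -0.98 for the inner root sheath, with 0 of 7 positive, and of 0.92 for the high glycine-tyrosine KAPs, with 14 of 15 positive. On arrays 3 and 4 these medians were -0.74, with 0 of 7 positive, and -1.32, with 0 of 15 positive. The cortex keratins stood at -0.15 and -1.18, the cuticle keratins at -1.23 and -0.09, and Krt35 at -2.17 and 0.13. On arrays 3 and 4 the ranges of the inner root sheath (-2.17 to -0.10), the cortex (-1.44 to -0.75) and the high glycine-tyrosine KAPs (-2.94 to -0.51) overlapped. The positive KAP median on arrays 1 and 2 came from pair 2 (2.04, 14 of 15 positive), since pair 1 stood at -0.02 with 7 of 15 positive. In pair 1, 2 of the 7 inner root sheath keratins were positive, Krt26 and Krt72. In pair 4, 2 of these 7 and 3 of the 15 KAPs were positive. Over all 63 the medians were 0.18 and -1.14. Krtap5-2 and Krtap5-3, ultrahigh sulfur KAPs, went the other way on arrays 3 and 4, with 1.87 and 2.21. Each class holds 2 arrays per condition, and no test of the difference between classes was made.

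**Figure D5:**
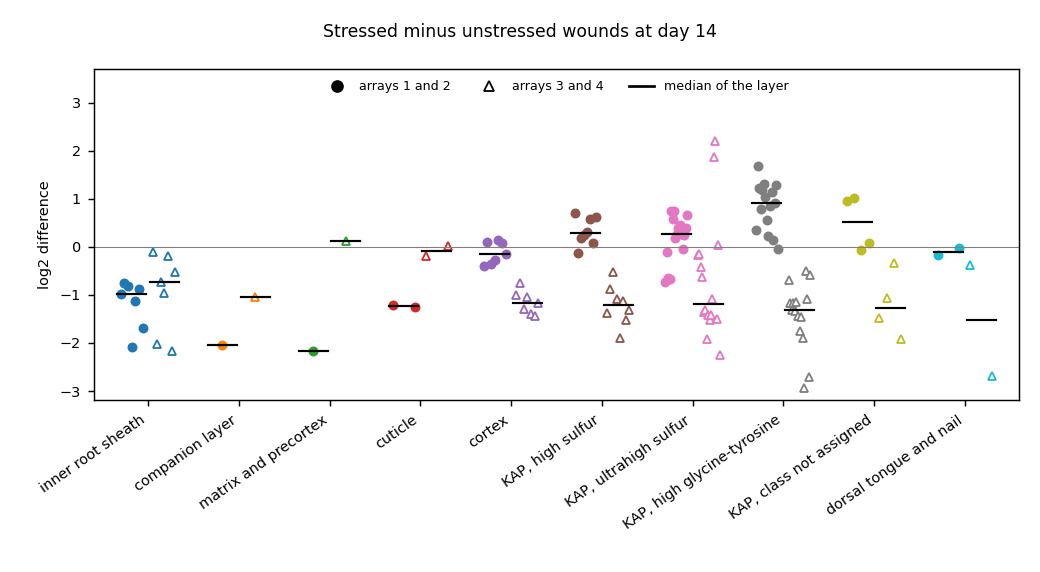
Stressed minus unstressed log2 difference at day 14 on arrays 1 and 2 (low Xist, filled circles) and on arrays 3 and 4 (high Xist, open triangles), 1 symbol per probe set, by layer or KAP class, with medians as bars. Inner root sheath symbols lie below 0 in both classes, and high glycine-tyrosine KAPs have medians of 0.92 and -1.32.

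Other genes of the follicle were read from lists of textbook markers. Over all probe sets 16.8% rose and 23.4% fell with time in unstressed wounds, and 18.7% rose and 26.6% fell in stressed wounds. Of 9 measured proteins of the hair shaft and root sheaths that are not keratins, 5 rose and 1 fell in unstressed wounds and 4 rose and 1 fell in stressed wounds. Those described next all rose, and none that fell is described. Tchh rose by 5.99 (SE 0.68, limma adjusted p = 1.97e-05) and 4.35, S100a3, a calcium-binding protein of the hair cuticle, by 6.12 and 5.13, and Padi3, which modifies trichohyalin, by 5.74 and 3.70. Of 21 regulators of the follicle, 9 rose and 1 fell in unstressed and 6 rose and 3 fell in stressed wounds. The regulators described next are a selection that holds none of those that fell. Wnt10b, also planned to be named, is not described. Hoxc13, the homeobox factor that activates hair keratin genes, rose by 2.78 in unstressed wounds (limma adjusted p = 0.000804), and its 1.28 in stressed wounds did not pass (limma adjusted p = 0.0568). The latter depended on the setting. It passed with 1 probe set per gene, quantile normalization, array weights and the filter on variability (limma adjusted p = 0.0479, 0.0326, 0.0474 and 0.0393). Msx2, a homeobox factor of the matrix, rose by 3.25 and 1.55, and Lef1, the Wnt effector, by 1.98 and 1.06. In stressed wounds without the high Xist arrays these 2 factors stood at 0.29 and 0.36 and did not pass (limma adjusted p = 0.578 and 0.284). The stressed call of Msx2 was also lost with all probe sets tested (limma adjusted p = 0.0506). Both stressed calls were lost under most omissions of a single array. Foxn1, which the cortex needs for keratin expression, stood at 1.45 (limma adjusted p = 0.109) and 0.52. The latter was -0.86 without the high Xist arrays (limma adjusted p = 0.0497). Without the low Xist arrays Foxn1 passed in unstressed and stressed wounds, at 2.45 and 1.89 (limma adjusted p = 0.000964 and 0.00521). Shh, the matrix signal, stood at 0.74 (limma adjusted p = 0.219) and 0.27. In unstressed wounds Shh passed without the high Xist arrays (1.34, limma adjusted p = 0.0159) and with array weights (1.08, limma adjusted p = 0.0265). Of 8 measured genes of follicle melanocytes, 3 rose in unstressed and 2 in stressed wounds and 0 fell.

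Under load at day 14, 0 of the 9 shaft and sheath proteins passed, with 0 positive and a median of -0.80. Of the 21 regulators 2 were lower and 0 higher, namely Bmp2 at -1.59 (limma adjusted p = 0.017) and Cux1 at -1.21 (limma adjusted p = 0.0477). Hoxc13 stood at -1.6 without passing (limma adjusted p = 0.0743). With the replicate block Hoxc13 passed (limma adjusted p = 0.0246), and it did with the Xist class as a term (limma adjusted p = 0.00475). Of 9 genes of the outer root sheath and bulge, 3 were lower: Sox9, Lhx2 and Tbx1, transcription factors of follicle progenitors, at -1.39, -1.96 and -1.74. Of Bmp2, Cux1, Sox9, Lhx2 and Tbx1, none passed after quantile normalization (limma adjusted p from 0.098 for Sox9 to 0.231 for Cux1) or in a fit of only the arrays compared (from 0.108 for Sox9 to 0.212 for Cux1). None passed without stressed day 14 array 2 either (limma adjusted p from 0.0536 for Sox9 to 0.166 for Cux1). With the replicate block, Cux1 and Lhx2 no longer passed (limma adjusted p = 0.104 and 0.0779). Without the low Xist arrays Sox9, Cux1, Lhx2 and Tbx1 stood at -1.24, -0.19, -0.33 and -0.81 and did not pass. Over all probe sets 4.04% were lower and 3.31% higher in this comparison.

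Markers of other cells were read in the same comparisons, where 23.4% of all probe sets fell with time in unstressed and 26.6% in stressed wounds. Of 10 suprabasal epidermis genes, 7 fell with time in unstressed and 4 in stressed wounds, and of 10 macrophage genes 9 and 7 fell. The mean centred signal of the macrophage list ran from -0.41 to 0.73 at day 6, from -2.49 to -1.64 in unstressed and from -1.03 to 0.12 in stressed wounds at day 14. Under load at day 14, 9 of the 10 macrophage genes and 3 of 10 fibroblast genes were higher, and 6 of 10 skeletal muscle and 6 of 7 adipocyte genes were lower. Of all probe sets, 3.31% were higher and 4.04% lower under load at that day. The mean of the muscle list ran from -1.61 to 0.69 in unstressed and from -4.09 to -0.37 in stressed wounds at day 14. Of 6 basal epidermis genes, 2 fell with time in unstressed and 1 in stressed wounds, and of 9 outer root sheath and bulge genes 3 and 4 fell while 2 and 0 rose, lists too short to set these counts apart from the shares of all probe sets. The part of these cell types in the keratin and KAP differences was not tested.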

How the data were processed

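The 16 arrays hold probe set signals of wound RNA, hybridized to Affymetrix chips. Per the labels of the series, scans were read with GeneSpring GX 11.0. How background was corrected and arrays were normalized is not given in the sources used here. As the values show, the authors deposited a log scale, taken here as log2, and had already centred each probe set. The largest range of a probe set was 10.08, and log10 of a 16-bit scan spans at most 4.82.

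Probe sets were named with the platform annotation. Of 45101 probe sets, 34945 had 1 symbol, and the others were not tested. Group means of all 16 arrays entered lmFit and eBayes of limma 3.58.1 (R 4.3.3), two-sided, with Benjamini-Hochberg adjustment over the 34945 and a threshold of 0.05. No filter on low values was applied, so all 63 probe sets were tested. The fit was also run on simulated data in which each probe set had the same spread in every group. The 63 probe sets spread far more at day 14 than at day 6, so that run does not cover their tests. Motifs and plots were made with Python 3.11.15. Alternatives were quantile normalization of the centred values, array weights, a filter on variability, 1 probe set per gene, the Xist class, the replicate block and single arrays left out. The members and gene lists were chosen with earlier results of these data known. The KAP classes were planned from protein composition, and were taken from textbook families instead once no protein sequences were at hand. They leave 4 probe sets without a class. Counting Krtap10-4 and Krtap12-1 as ultrahigh rather than high sulfur was not checked, and the counts, medians and shares of these classes depend on it.

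Named members were the 4 of widest range per layer, those of smallest adjusted p per comparison and a fixed list of keratins, with others named after their values were seen. The replicates are 4 mice per group per the design text, and no 2 replicates held the same values (smallest SD of their differences 0.237). At day 14 same-numbered arrays of the 2 conditions deviated together (correlations 0.25, 0.17, 0.26 and 0.14), so the numbers were taken as pairs there. Unstressed array 2, however, correlated best with stressed array 1, so this pairing is an assumption that the values do not settle. At day 6 the correlations were -0.15, -0.42, -0.24 and -0.00. The pairs at day 14 share their Xist class.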

Additional observations from a re-analysis of the deposited data

Results flagged for a closer look

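Of 168 groups of 4 arrays (each probe set named by rule, and each median over several probe sets), 10 held an array far from the nearest of the others. Chance flags about 1 in 20 groups. Among the unstressed day 6 arrays, array 4 stood above the rest for Krt27 (-0.51), Krt35 (-0.27) and Krt71 (-0.51). Among the stressed day 6 arrays, array 4 stood above the rest for Krt34 (-0.28) and Krtap4-1 (-0.50). Krt84 was set apart by unstressed day 6 array 3 (0.61) and by stressed day 14 array 4 (2.01). Krtap31-1 was highest on unstressed day 6 array 1 (0.30). The median of the cuticle keratins was lowest on stressed day 6 array 3 (-0.76), and the median of the tongue and nail keratins was highest on stressed day 14 array 4 (2.76).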

How the results depend on the processing

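The counts of 0 for loading at day 6 and for the change of the loading difference between days stayed at 0 under every alternative run. The count for loading at day 14 went from 0 to 1 with the replicate block, with the Xist class as a term and without the high Xist day 14 arrays, and to 4 without the low Xist day 14 arrays (Krtap5-3 higher at 2.21, Krt72, Krtap7-1 and Krt84 lower at -2.17, -2.70 and -2.68). It was 0 with a fit of the day 14 arrays alone and the Xist class as a term, a setting chosen after seeing the data, as was leaving out array 4 of both day 6 groups. Leaving out 1 array at a time gave 0 to 1 for loading at day 14 (1 without stressed array 4), 51 to 61 for time in unstressed and 47 to 60 for time in stressed wounds. With the replicate block, 60 and 57 of the 63 rose with time. That block changed no other call count by more than 1.5 times. With it Lef1 in stressed wounds stood at 1.06 (limma adjusted p = 0.0649), although the numbers do not pair the arrays across days. The Xist class term gave 54 and 48, quantile normalization 60 and 61, array weights 55 and 57, and 1 probe set per gene 55 and 52 of 58. The median time difference fell to 2.88 and 2.43 with the Xist class term. Among single genes, Krtap13 with time turned to -0.048 in unstressed wounds without the high Xist arrays, and from -0.00 in stressed wounds to 0.11 with array weights, 0.068 without the low Xist arrays and ran from -0.081 to 0.16 over the single arrays left out. Under load at day 14, Krtap5-3 turned to -0.040 without the high Xist arrays. Krtap7-1, at -0.71 there, turned to 0.28 with quantile normalization, 0.89 with array weights, 1.28 without the high Xist arrays and ran from -1.99 to 0.52 over the single arrays left out. In stressed wounds with time, Foxn1 turned to -0.67 with the Xist class term, -0.86 without the high Xist arrays and ran from -0.17 (without stressed day 14 array 4) to 1.01 over the single arrays left out, and Shh turned to -0.36 without the high Xist arrays. The cause of these changes was not tested. Because the values are centred, signal over background cannot be read, and whether a probe set was near background at day 6 is unknown.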

Other observations

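A further 6 probe sets carry several symbols, at least 1 of them a Krtap gene, and were not tested because their gene is not single. On 5 of these 6, all 8 day 14 arrays exceeded all 8 day 6 arrays. Their highest day 14 values ran from 4.48 to 8.10.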
